A study of Mus musculus with 7 samples.

Results

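Cldn13, Atp1b2, Tspo2, Mfsd2b and 1700006J14Rik are 5 little studied genes out of 19938 that were measured in hematopoietic stem cells (HSCs) with and without Cebpa, the gene of the transcription factor C/EBPα. They were chosen by their measured values: all 5 were higher without Cebpa in the same arrays described here, so their genotype difference is given as a description with no test. Each gene had 1 probe set annotated to that gene alone.

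Gene expression was measured on Affymetrix arrays in HSCs that had been sorted from marrow of female C57BL/6 mice as lineage-negative cells with Sca1, cKit and CD150 and without CD48. Mice with Cebpa flox/flox alleles and no Cre (hereafter Cebpa fl/fl, 3 arrays) were compared with mice that had the same alleles and the Mx1Cre transgene (flox/flox;Mx1Cre, hereafter Cebpa Δ/Δ, 4 arrays). All mice of both groups received pIpC, an inducer of interferon, and were killed at day 18, and the study's methods also name ciprofloxacin, an antibiotic, in the drinking water after deletion. The mice were young adults by the age in the study's methods. Mx1Cre is driven by an interferon-responsive promoter that is active in blood cells and in other tissues, so Cebpa was not deleted in HSCs alone, and Cre carriage and Cebpa deletion cannot be told apart in these groups. The labels describe triplicates per genotype, whereas the samples number 3 and 4. The values are log2 of normalised intensities, and differences subtract the Cebpa fl/fl mean from the Cebpa Δ/Δ mean, with the standard error (SE) of a linear model fitted to all genes.

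Red cells form from HSCs through erythroid progenitors, in which GATA1 and KLF1 switch on the genes of the red cell membrane, of heme synthesis and of hemoglobin. Claudins such as that encoded by Cldn13 are membrane proteins that seal tight junctions between epithelial cells, and Atp1b2 encodes a β subunit of the sodium pump (Na,K-ATPase), best known from glia. Tspo2 encodes an erythroid relative of the mitochondrial translocator protein TSPO, Mfsd2b a transporter that exports sphingosine 1-phosphate (S1P) from red cells and platelets, and 1700006J14Rik a long non-coding RNA without a descriptive name.

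The DNA upstream of the start site was available for 3 of the 5 genes (RefSeq, build GRCm38.p6, mouse) and is shown for Tspo2 and Mfsd2b, because it is where erythroid transcription factors or C/EBPα would bind if they acted close to the start. Tspo2 lies on the minus strand, and its stretch of 187 bases is chr17:48451565-48451751. The 63 bases closest to its start were left out because another annotated transcript reaches into them. Mfsd2b also lies on the minus strand, and its 250 bases are chr12:4874360-4874609 and end at the base before the start. Both are written 5′ to 3′ in the direction of transcription, and capitals mark matches to the KLF motif CCNCNCCC on either strand.
Tspo2: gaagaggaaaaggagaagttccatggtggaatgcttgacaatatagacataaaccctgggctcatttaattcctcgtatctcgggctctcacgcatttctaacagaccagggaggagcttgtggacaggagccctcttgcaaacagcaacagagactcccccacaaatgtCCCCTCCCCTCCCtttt
Mfsd2b: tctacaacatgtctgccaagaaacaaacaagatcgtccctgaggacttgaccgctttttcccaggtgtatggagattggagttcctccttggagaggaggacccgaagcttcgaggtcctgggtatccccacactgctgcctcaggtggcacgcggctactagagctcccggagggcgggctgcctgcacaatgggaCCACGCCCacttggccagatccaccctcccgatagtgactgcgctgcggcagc

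Tspo2 held 2 overlapping KLF matches, from base 80 to base 73 and from base 75 to base 68 before the start. Mfsd2b held 1, from base 53 to base 46. The KLF motif was found in all 3 of the genes searched and in 45.9% of 32851 mouse promoter windows of 250 bases. The GATA motif (AGATAA or TGATAA on either strand) was found in neither Tspo2 nor Mfsd2b and in 16.6% of all windows. For 1700006J14Rik, a GATA match on the reverse strand lay from base 205 to base 200 before the start, and its KLF matches lay in the last 27 bases. The C/EBP motif TTGCNNAA was in 0 of the 3 windows and in 9.56% of all windows, and the NFE2 motif TGACTCA was in 0 of the 3 and in 4.46%. A match here is a run of letters and no evidence of binding. The window of 1700006J14Rik lies inside the gene Hmga2 and its bases are not shown.

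Cebpa itself, a gene of low signal on these arrays, measured 5.54, 5.75 and 5.63 in Cebpa fl/fl arrays 1 to 3, and 5.11, 5.24, 5.27 and 5.27 in Cebpa Δ/Δ arrays 1 to 4. Every Cebpa Δ/Δ array was lower, by a mean change under 1.5-fold (-0.41, SE 0.07, adjusted p = 0.337 in limma).

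The study called genes at p under 0.05 if they also changed by over 1.5-fold, and named no test or adjustment for these calls. Here p was taken without adjustment. At these thresholds, with p from the linear model (limma), 314 of 19938 genes were higher in Cebpa Δ/Δ (1.57%) and 123 were lower (0.617%). No gene had an adjusted p under 0.05 (0%), the smallest being 0.207, and at p under 0.05 with no adjustment 877 genes were higher and 615 lower. All 5 genes lay on the higher side of these thresholds. In all 5 every Cebpa Δ/Δ array was above every Cebpa fl/fl array, which held for 700 genes in all (3.51%). This is how they were chosen, so nothing is read from it.

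Atp1b2, the sodium pump subunit, measured 6.38, 6.65 and 5.08 in the 3 Cebpa fl/fl arrays and 9.04, 8.23, 9.31 and 8.47 in the 4 Cebpa Δ/Δ arrays. Every Cebpa Δ/Δ array was above every Cebpa fl/fl array, with a gap of 1.58 between the lowest and the highest. The means were 6.04 ± 0.84 (SD, n = 3) and 8.76 ± 0.50 (SD, n = 4), a difference of 2.73 (SE 0.44) or 6.62-fold.

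Cldn13, the claudin, measured 4.99, 7.20 and 5.23 against 9.68, 8.05, 9.61 and 7.76. Cebpa fl/fl array 2 stood above the other two of its group, so the gap to the lowest Cebpa Δ/Δ array was only 0.56. The difference of 2.97 (SE 0.74, 7.82-fold) was the 5th largest increase of all genes, but its spread was the widest of the 5 genes, with means of 5.81 ± 1.22 (SD, n = 3) and 8.78 ± 1.01 (SD, n = 4). Without Cebpa fl/fl array 2 the difference was 3.67, and without both Cebpa fl/fl array 1 and Cebpa Δ/Δ array 3 it was 2.28 and no longer past the study's thresholds.

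Tspo2, the relative of the translocator protein, measured 4.07, 6.12 and 4.73 against 8.42, 6.77, 8.21 and 7.39. Cebpa fl/fl array 2 was again the highest of its group, and the gap to Cebpa Δ/Δ array 2 was 0.65. The means were 4.97 ± 1.05 (SD, n = 3) and 7.70 ± 0.76 (SD, n = 4), a difference of 2.73 (SE 0.59) or 6.62-fold. The value of Cebpa fl/fl array 1 lay under 4.43, the 25th percentile of all gene values, where intensities are close to background. Without Cebpa fl/fl array 1 and Cebpa Δ/Δ array 3 the difference was 2.10.

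Mfsd2b, the S1P exporter, had the smallest difference of the 5 genes. It measured 7.29, 7.57 and 7.20 against 9.53, 8.72, 9.33 and 9.09. All Cebpa fl/fl arrays lay within a range of 0.37. The means were 7.35 ± 0.19 (SD, n = 3) and 9.17 ± 0.35 (SD, n = 4). The difference was 1.81 (SE 0.20), or 3.52-fold, and the gap between the groups was 1.15.

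The long non-coding RNA 1700006J14Rik was the tightest within Cebpa fl/fl, at 5.66, 5.68 and 5.45 (range 0.23). It measured 8.25, 7.16, 8.01 and 7.96 in Cebpa Δ/Δ, where array 2 was the low one. The means were 5.60 ± 0.13 (SD, n = 3) and 7.85 ± 0.48 (SD, n = 4). The difference was 2.25 (SE 0.26), or 4.75-fold, with a gap of 1.48. Levels are compared between arrays and not between genes, since a probe set's brightness also depends on its probes.

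**Figure D1:**
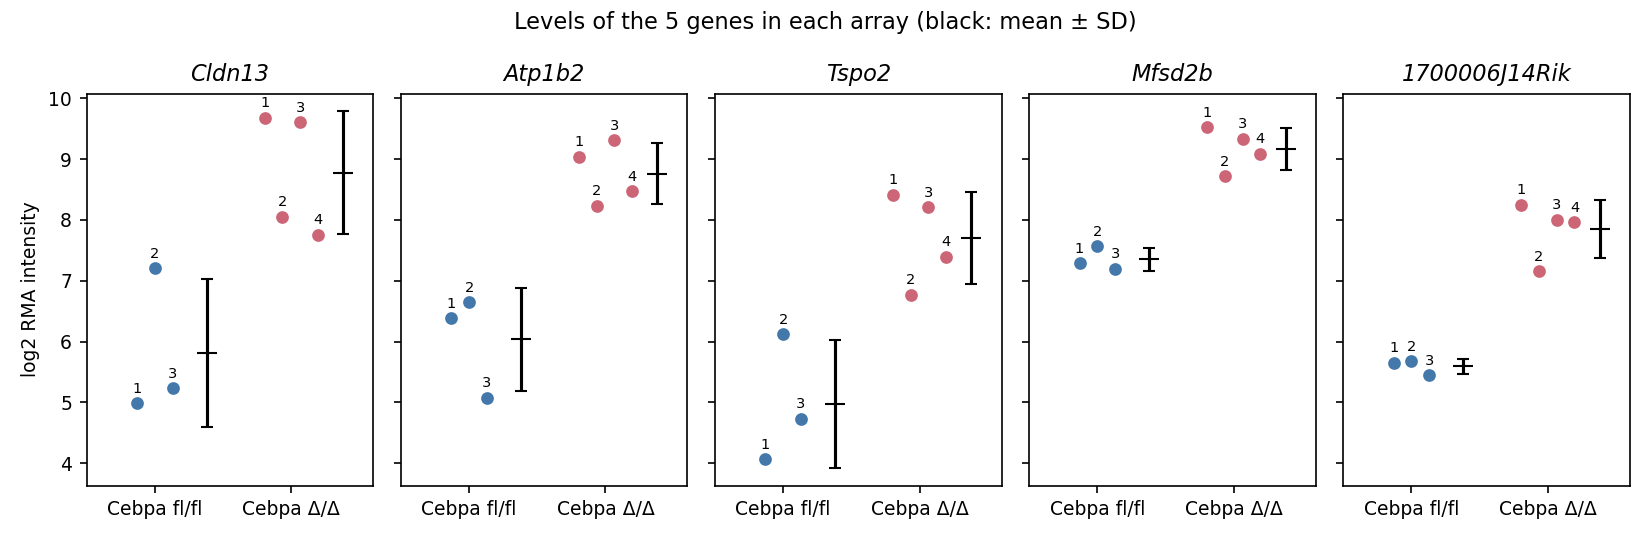
Log2 intensity of each of the 5 genes in each array (points, numbered by replicate), with the mean ± SD of each genotype in black, Cebpa fl/fl with 3 arrays and Cebpa Δ/Δ with 4. For every gene the lowest Cebpa Δ/Δ point lies above the highest Cebpa fl/fl point, with the smallest gap for Cldn13 (0.56) and the widest for Atp1b2 (1.58).

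Within a genotype, the arrays kept a similar order from gene to gene. The spread within a genotype enters the thresholds by which the genes were chosen, so these counts too are a description. Cebpa fl/fl array 2 was the highest of its group for all 5 genes, against 29.0% of all 19938 genes. In Cebpa Δ/Δ, arrays 1 and 3 were above their group's mean and arrays 2 and 4 below it for 4 of the 5 genes, against 8.61% of all genes and 11.9% of those above the median level. The exception was 1700006J14Rik, for which array 4 was above the mean too. The 5 genes come from the same 7 RNA samples, and no test was made.

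Marker genes of some cell types moved with this order. The mean log2 level of 6 erythroid markers was 5.84, 6.65 and 5.89 in Cebpa fl/fl arrays 1 to 3 and 8.85, 7.87, 8.65 and 7.84 in Cebpa Δ/Δ arrays 1 to 4. All 6 had arrays 1 and 3 above and arrays 2 and 4 below the mean of Cebpa Δ/Δ. Arrays 1 and 3 were also those with the higher level of 10 macrophage markers, at 6.45 and 6.23 against 5.48 and 5.64, whereas Cebpa fl/fl arrays lay between 5.05 and 5.11. T and NK cell markers (5.34 and 5.61 against 5.23 and 5.08) and mast cell and basophil markers (4.80 and 4.996 against 4.67 and 4.47) were higher in arrays 1 and 3 by less. Most T and NK cell and mast cell and basophil markers were dim, with 1 of 8 and 1 of 10 above the median level of all genes. Cebpa fl/fl array 2, the highest of its group for the 5 genes, also had the highest level of 10 neutrophil markers (9.95 against 9.18 in array 1 and 7.84 in array 3) and was the highest for 9 of these 10 and for 7 of 10 mast cell and basophil markers.

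The opposite order was seen for 10 HSC markers, among them Kit, Procr and Hlf, which averaged 8.26, 8.72, 7.96 and 8.76 in Cebpa Δ/Δ arrays 1 to 4 and 8.66 to 8.75 in Cebpa fl/fl. All 10 were above the median level of all genes, and 0 of 10 passed the study's thresholds (median difference -0.30). Hlf (-0.51, SE 0.23) passed them without Cebpa Δ/Δ array 2 (-0.67). Of the macrophage markers 4 of 10 were higher and 0 lower, among them C1qc (2.02, SE 0.43) and C1qb (1.81, SE 0.41), which encode chains of complement C1q. The other two, Mrc1 and Vcam1, were not past the thresholds without Cebpa fl/fl array 3 (1.24 and 1.03), and Mrc1 also without most other single arrays. The part of other cells in the differences of the 5 genes was not tested, and in these bulk samples more cells of a type and more RNA per cell cannot be told apart.

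**Figure D2:**
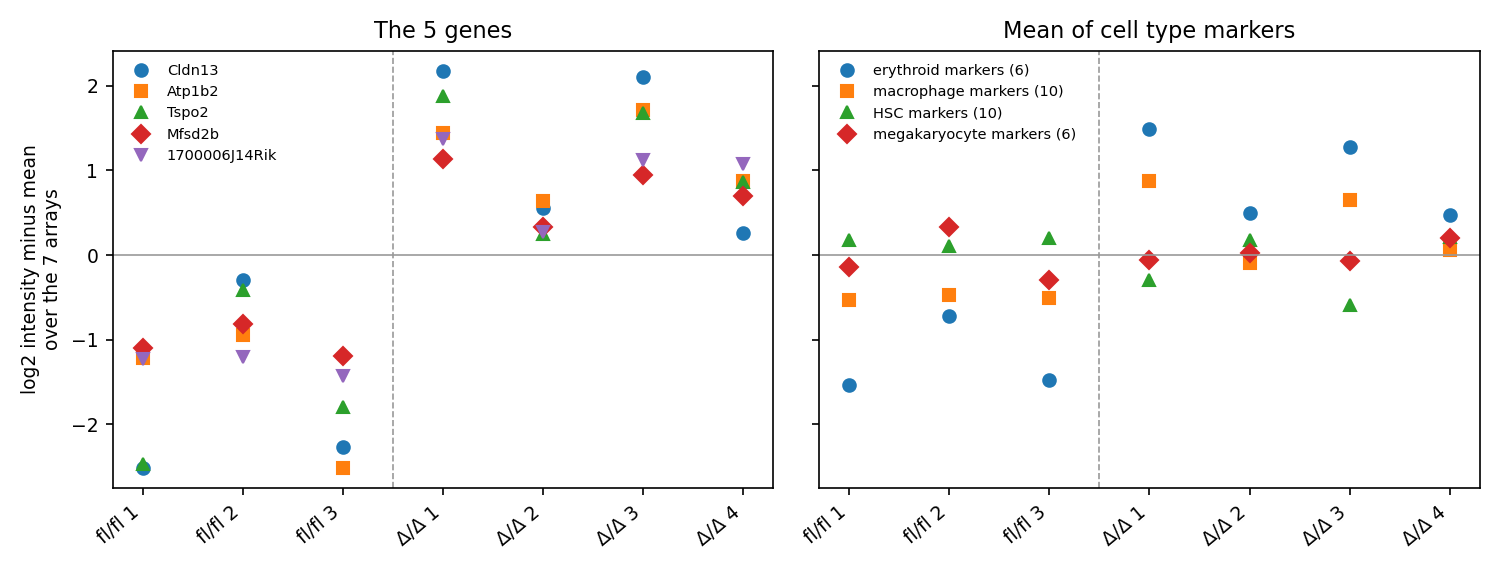
Array by array levels (log2 intensity, each gene or marker list centred on its mean over the 7 arrays) of the 5 genes and of the mean of the erythroid, macrophage, HSC and megakaryocyte marker lists. Cebpa Δ/Δ arrays 1 and 3 are high for the erythroid and macrophage lists and low for HSC markers, and Cebpa fl/fl array 2 is the highest of its group for each of the 5 genes.

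Markers of cells in which claudins or Atp1b2 are better known had nearly the same range in both genotypes. Glia markers averaged 5.08 to 5.15 in Cebpa fl/fl and 5.09 to 5.15 in Cebpa Δ/Δ, with 0 of 9 past the study's thresholds. Epithelial markers averaged 5.65 to 5.73 and 5.61 to 5.72, with 0 of 10. Most of these markers were dim, with 1 of 9 and 3 of 10 above the median level of all genes. Cdh1, which encodes E-cadherin, passed without Cebpa Δ/Δ array 4 (0.62). Megakaryocyte and platelet markers, of the other lineage in which Mfsd2b is known to act, ranged from 7.09 to 7.72 and from 7.31 to 7.59, with 0 of 6. Of mast cell and basophil markers 2 of 10 were higher, of endothelial and stromal markers 2 of 10, of T and NK cell markers 1 of 8 and of B cell markers 0 of 9. The mast cell and basophil markers called were Cpa3 (2.66, SE 0.50, groups not overlapping) and Gzmb (1.34, SE 0.42). Gzmb was not past the thresholds without Cebpa fl/fl array 1 (1.16) or without Cebpa fl/fl array 3 (1.27). Klrd1, the only T and NK cell marker called, had overlapping groups and was not past the thresholds without most single arrays, at 0.93 to 1.43, as was Cxcl12, a stromal chemokine, at 0.71 to 1.20. Nkg7 passed without Cebpa fl/fl array 2 (1.35) or without Cebpa Δ/Δ array 4 (1.22). Blnk, a B cell marker, passed without Cebpa fl/fl array 1 (0.60) or without Cebpa Δ/Δ array 1 (0.62). Of 10 neutrophil markers 9 were lower (median -3.67). Over all genes 1.57% were higher and 0.617% lower, so nothing is read from the counts of 0 in these marker lists.

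Relatives and partners of the 5 genes were followed as lists. Together 2 of 69 measured genes were higher and 1 was lower at the study's thresholds, 0 had an adjusted p under 0.05, and the median difference was 0.00, as over all genes. Of all genes 1.57% were higher and 0.617% lower. Nothing is therefore read from these counts, nor from a count of 0 in a single list. For the sodium pump, 0 of 11 genes passed, with differences from -0.29 to 0.40. Atp1b3, another β subunit, differed by 0.12 (SE 0.15, adjusted p = 0.832). Fxyd5, a regulator of the pump, differed by -0.10 (SE 0.10).

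Of 30 claudins and tight junction genes, 0 were higher and only Tjp1, the scaffold protein ZO-1 of tight junctions, was lower (-0.73, SE 0.15, adjusted p = 0.412). Without Cebpa fl/fl array 2 the difference of Tjp1 was -0.57, under 1.5-fold. Cldn20 differed as much (-0.75, SE 0.32, adjusted p = 0.666), with overlapping groups and not past the thresholds, which it passed without Cebpa fl/fl array 2 (-1.01), with array weights (-0.78), with array medians subtracted (-0.76), and at an unchanged difference with the mean-variance trend or with genes above the median level alone. Jam3 passed without Cebpa fl/fl array 3 (-0.81). On the higher side, Cldn5 passed without Cebpa fl/fl array 2 (0.68). Cldnd2 did so without that array (0.60) or without Cebpa Δ/Δ array 2 (0.61). Of the 30 genes only 8 were above the median level of all genes. Cldn12 and F11r, a junctional adhesion molecule, differed by -0.30 and -0.03.

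Tspo, the translocator protein itself, had means of 8.84 in Cebpa fl/fl and 9.23 in Cebpa Δ/Δ, a difference of 0.39 (SE 0.28, adjusted p = 0.743). Its ligand Dbi differed by -0.08, and the channels Vdac1, Vdac2 and Vdac3, which bind TSPO, by 0.01, 0.08 and 0.01. None of the 10 genes of this list passed, although Tspo did without Cebpa Δ/Δ array 4 (0.61).

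In the S1P pathway, 2 of 18 genes were higher and 0 lower. Sphk1, a kinase that makes S1P, had means of 6.11 and 7.16 (1.05, SE 0.27, adjusted p = 0.507). Its difference was 0.96 and not past the thresholds without Cebpa fl/fl array 1 and Cebpa Δ/Δ array 3. Sphk2, which also makes S1P, differed by -0.09 (SE 0.10). Plpp1, a lipid phosphatase that can act on S1P, was higher by 0.92 (SE 0.21, adjusted p = 0.481).

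Spns2, the S1P exporter of endothelial cells, differed by -0.18 (SE 0.15), and the lyase Sgpl1, which breaks S1P down, by -0.19. The receptors S1pr1, S1pr2 and S1pr4 differed by 0.12, 0.04 and -0.27. The receptor S1pr3, below the median level, differed by 0.49 (SE 0.17), under 1.5-fold and with overlapping groups. It passed the thresholds without Cebpa fl/fl array 2 (0.66). Abcc1, a transporter that can also carry S1P, differed by -0.42 (SE 0.12, adjusted p = 0.583), a change under 1.5-fold.

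Most genes of the erythroid lists, which hold none of the 5 genes, were higher in Cebpa Δ/Δ. Of 50 measured genes 30 were higher and 0 lower at the study's thresholds (median 0.97), 0 of them with an adjusted p under 0.05. The count was 19 without Cebpa fl/fl array 1 and Cebpa Δ/Δ array 3. In 29 of the 50 (58.0%), Cebpa Δ/Δ arrays 1 and 3 lay above and arrays 2 and 4 below the mean of the group, the order of 4 of the 5 genes.

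By role, 13 of 16 red cell membrane genes were higher (median 1.32). Slc4a1, the anion exchanger band 3, was higher by 3.08 (SE 0.36, adjusted p = 0.207) and Kel, the Kell blood group protein, by 2.76 (SE 0.55). Of the heme synthesis genes 7 of 10 were higher, with Alas2, the erythroid enzyme of the first step, at 2.20 (SE 0.35). Of the transcription factors and the receptor 3 of 11 were higher, which were Klf1 (2.11, SE 0.39), Gata1 (1.52, SE 0.31) and Epor, the erythropoietin receptor (1.08, SE 0.36). The last was not past the thresholds without Cebpa fl/fl array 1 or without Cebpa Δ/Δ array 3. The 3 measured hemoglobin genes were embryonic ones, with 0 past the thresholds and a median of 0.07. The adult hemoglobin genes are not analysed here.

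**Figure D3:**
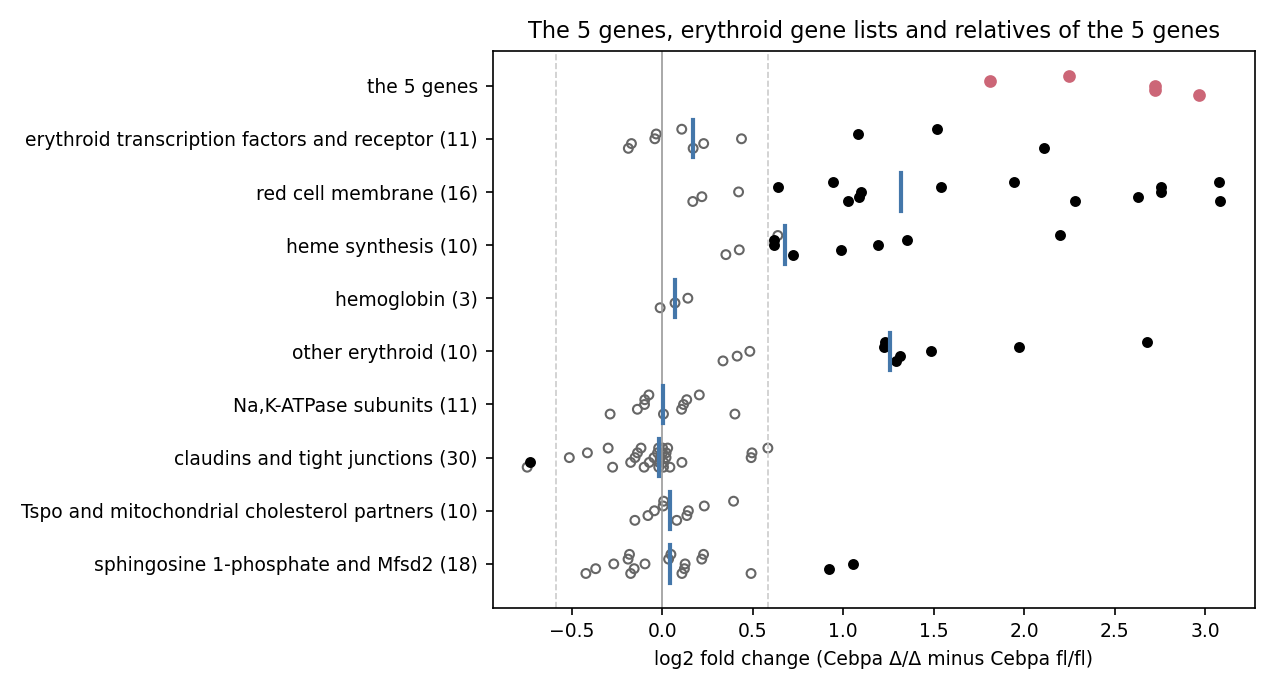
Difference in log2 intensity (Cebpa Δ/Δ minus Cebpa fl/fl) for each measured gene of the erythroid lists, the lists of relatives and the 5 genes, 1 point per gene, filled where past the study's thresholds (the 5 genes in red), with bars at list medians and dashed lines at 1.5-fold. The 5 genes lie between 1.81 and 2.97, Atp1b2 and Tspo2 at the same value. They were chosen for their increase in these arrays, so nothing is read from their place above the list medians. The lists of relatives have medians close to 0.

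The nearest measured genes on the chromosome, 2 on each side of each of the 5 genes by the order in RefSeq, were compared next. Some of them lie far off, such as Lrfn2 at 480.0 kb from Tspo2 and Msrb3 at 394.2 kb from 1700006J14Rik. Of these 20 genes 0 were higher and 0 lower at the study's thresholds, which 1.57% and 0.617% of all genes passed, so nothing is read from these counts. Their differences ran from -0.20 to 0.54 (median 0.01). Near Cldn13 lie Tmem270 (0.03) and Mettl27 (-0.07), and beyond them Eln, which encodes elastin (0.07), and Cldn4, another claudin (-0.05). Near Atp1b2, Wrap53, a telomerase factor, differed by 0.28 (SE 0.10, adjusted p = 0.663).

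Near Tspo2, Oard1, an enzyme that removes ADP-ribose, differed by 0.54 (SE 0.25, adjusted p = 0.688). It rose to 0.72 and passed the thresholds without Cebpa fl/fl array 2. Near Mfsd2b, Atad2b differed by 0.26 (SE 0.11). On one side of 1700006J14Rik, beyond 4921513I03Rik (-0.20), Msrb3, a methionine sulfoxide reductase, differed by 0.22 (SE 0.08, adjusted p = 0.663). The arrays of Wrap53 and of Msrb3 did not overlap between the genotypes, although both changes were under 1.5-fold.

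The annotated span of 1700006J14Rik lies wholly inside that of Hmga2, a chromatin protein gene, on the opposite strand. Hmga2 measured 7.38, 7.38 and 7.61 in Cebpa fl/fl and 7.27, 7.38, 7.16 and 7.64 in Cebpa Δ/Δ. The groups overlapped (-0.09, SE 0.13, adjusted p = 0.847). Whether either probe set also takes up RNA of the other gene was not tested.

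**Figure D4:**
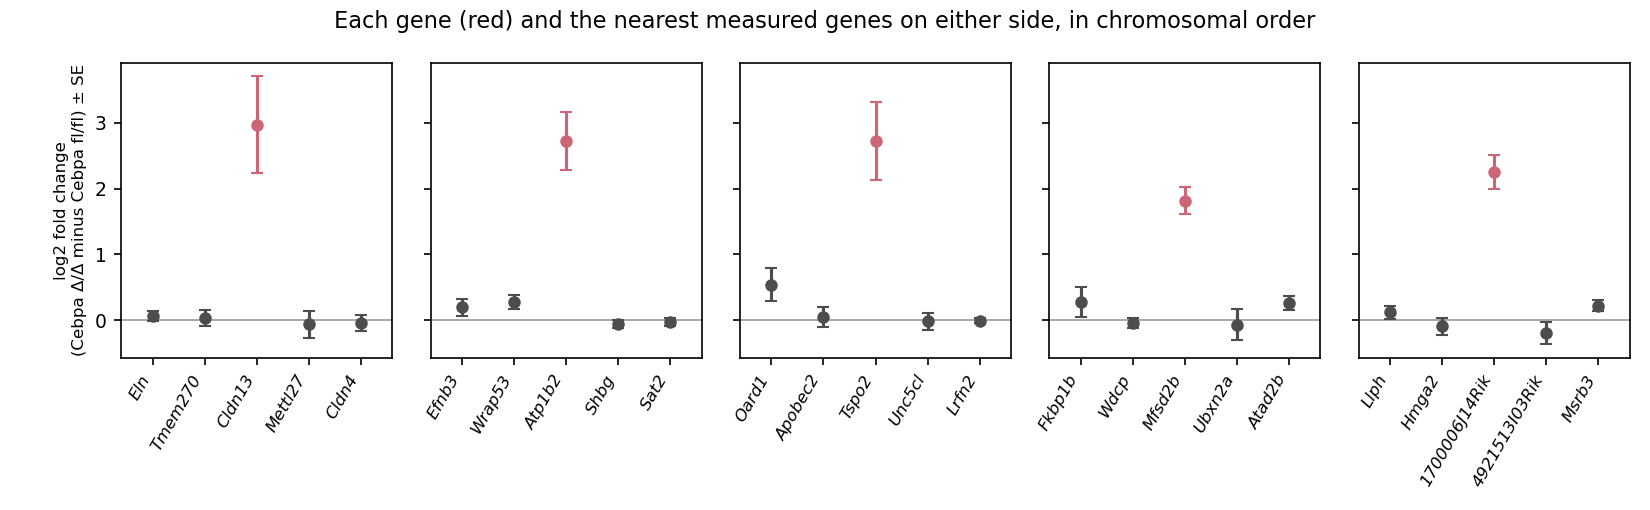
Difference in log2 intensity (Cebpa Δ/Δ minus Cebpa fl/fl, bars are ± SE of the fit) for each of the 5 genes and the 2 nearest measured genes on each side. The 5 genes, chosen for their increase in these arrays, lie between 1.81 and 2.97. All 20 neighbours lie between -0.20 and 0.54.

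The genes with the most similar profile over the 7 arrays were ranked by the root mean square difference of centred log2 values among 9964 genes above the median level. The measure includes the difference between genotypes and is a description. For Tspo2 the closest were Ermap (0.161), a red cell surface protein, and Kel (0.184). For Cldn13 they were Rhd (0.268), the Rh blood group D protein, and Kel (0.325). For Atp1b2 they were Rhag (0.368), the Rh-associated glycoprotein, and Ctse (0.379), a protease.

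Mfsd2b was closest to Ank1 (0.215), the red cell ankyrin, and Mt1 (0.221), a metallothionein. 1700006J14Rik was closest to Hmox1 (0.266), which degrades heme, and Gstp3 (0.281), and the macrophage marker C1qc was among its 5 nearest genes (0.385). Of the 16 distinct genes named in this way 7 were in the erythroid lists. Among the 5 genes themselves the closest pairs were Mfsd2b with 1700006J14Rik (0.255) and Cldn13 with Tspo2 (0.370), and the farthest was Cldn13 with Mfsd2b (0.935).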

How the data were processed

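RNA of 7 HSC samples was amplified with a NuGEN kit, and the labelled cDNA was hybridised to Affymetrix Mouse Gene ST arrays. The deposited intensity values were computed by the authors with RMA, per the methods in Partek Genomics Suite, which equalises the distribution of probe values, so differences in total RNA are not seen. The values were linear (1.51 to 9840, array medians 46.2 to 50.4), so log2 was taken without a pseudocount. Precision is limited by how few arrays there were, and p-values measure the spread between these samples.

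Of 35556 probe sets 21789 had 1 gene symbol, 1621 several and 12146 none here. Symbols were updated through Entrez numbers (21698 probe sets, RefSeq, GRCm38.p6). For 999 genes with several probe sets the one with the highest mean was used. The build of the probe sets is not given in the sources used here. 0 columns of values were unused.

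A linear model (limma 3.58.1 under R 4.3.3, functions lmFit and eBayes) compared the genotypes, with genotype as the only term and Benjamini-Hochberg adjustment over 19938 genes. The 5 genes and the lists were chosen with earlier results of these data known. Named genes were the 5, Cebpa, their neighbours, the 5 most similar genes of each, the 4 genes of smallest p of each list, relatives above the median level and the 3 most abundant markers of other cell types. On simulated data for this comparison, run on 19938 genes, 98% of 2-fold changes and 32% of 1.5-fold changes passed the study's thresholds. At an adjusted p under 0.05, with no fold threshold, the shares were 82% and 58%, whereas no gene of the real data reached it. The simulated noise was normal and independent between genes, and the changed genes were drawn from all genes. These shares therefore need not hold for the genes described here. Alternatives were array centring, a floor at the 25th percentile, genes above the median level, a mean-variance trend, array weights, the mean over probe sets, the replicate block and leaving out arrays.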

Additional observations from a re-analysis of the deposited data

How the results depend on the processing

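All 5 genes kept their direction in all 15 alternatives. Their differences ran from 2.28 to 3.67 for Cldn13, 2.25 to 3.03 for Atp1b2, 2.10 to 3.30 for Tspo2, 1.69 to 1.96 for Mfsd2b and 2.11 to 2.48 for 1700006J14Rik. The 5 genes were chosen by these same values, so nothing is read from their passing. All 5 were past the study's thresholds in each alternative, except Cldn13 without Cebpa fl/fl array 1 and Cebpa Δ/Δ array 3 together. No result reversed. Without those 2 arrays 169 of all genes were higher, 19 of the erythroid lists and 1 of the lists of relatives, with the causes not tested. With genes above the median level alone, the number of all genes with an adjusted p under 0.05 was 5. There, 1 relative was higher and 2 were lower. The count of relatives lower was also 2 with array medians subtracted, the mean-variance trend, array weights and the replicate block. Leaving out single arrays gave 0 to 3 genes with an adjusted p under 0.05, 223 to 404 genes higher, 93 to 157 lower, 26 to 31 erythroid genes higher, 2 to 5 relatives higher, 1 to 2 relatives lower and 0 to 1 neighbours higher. Of 141 other named genes 43 passed the study's thresholds, and 33 of them did so in every alternative.

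Samples of the 2 genotypes with the same replicate number did not deviate together (r = -0.02, 0.10 and -0.18), so the numbers were not taken to pair them. With the replicate block, in which Cebpa Δ/Δ array 4 has no partner, 292 genes were higher and 120 lower, 26 erythroid genes were higher, and the difference of Cldn13 was 3.31. Epor (1.21), Pklr (1.35), Klrd1 (1.42) and Cxcl12 (1.05) were then not past the study's thresholds, whereas Jam3 (-0.61), Nkg7 (1.22) and Cdh1 (0.62) were, and it changed no other call among the named genes.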
